A study of Mus musculus with 96 samples.

Results

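Skeletal muscle of wild-type and Scx-/- mice was compared in 6 bulk RNA libraries, 3 per genotype, taken from a series of 96 libraries over 16 tissues. All mice were 3 weeks old, and the genotype is the only difference that the sample descriptions give between the groups. The members were all gene symbols with a count in at least 1 of the 6 libraries, 14532 of 41575, and the comparison was fitted with all 6 libraries and again without the shallow wild-type replicate 1. The sources do not name the muscle that was dissected, the sex or strain of the mice, the design of the Scx allele, whether Scx was missing in all cells or in some, or which libraries came from the same mouse. The p-values therefore measure the spread between libraries, which may be technical.

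Scx encodes scleraxis, a basic helix-loop-helix transcription factor of tendon and ligament cells and of the connective tissue that joins muscle to tendon. Tendon cells secrete type I collagen, which the chaperone Serpinh1 helps to fold and which small leucine-rich proteoglycans such as fibromodulin (Fmod) and keratocan (Kera) bind. Skeletal muscle itself is a mixture of slow fibres, which use the slow isoforms of myosin, troponin and the calcium pump and contain much myoglobin, and fast fibres, which use separate fast isoforms. In whole-muscle RNA, fewer cells or fibres of a type and less RNA in each of them cannot be told apart.

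Of the 6 libraries, 5 held 474118 to 871531 counts on 8805 to 11171 genes, while wild-type replicate 1 held 30409 counts on 3385 genes, so that 1 count there equals 32.9 CPM (counts per 1000000 counts of the library). This library also stood apart on the first principal component, which took 61% of the variance. The most abundant genes were mostly those of skeletal muscle (Acta1, Ckm, Mylpf, Myh4 and Pvalb lead), in keeping with the tissue label. Mylpf, Myh4 and Pvalb are genes of fast fibres, while Acta1 and Ckm are used by all fibres. Xist, the transcript of the inactive X chromosome, was counted in wild-type replicates 1 and 3 and in Scx-/- replicate 1, and the Y-linked Ddx3y in the other 3 libraries, so both genotypes held libraries of both kinds. The median log2 fold change over all genes was 0.24 with all 6 libraries and 0.13 without wild-type replicate 1, and the fold changes given here are read against these shifts.

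Scx, on chr15:76457411-76459468 of mm10, was counted 0, 11 and 7 times in the wild-type libraries and 0 times in each Scx-/- library. Together this is 18 of 1376058 wild-type counts, or 13.1 CPM, against 0 of 2481714, which allows up to 1.21 CPM (3 counts over the group, counting error only). With the wild-type value taken as measured, Scx was thus at least 10.8-fold lower in Scx-/- muscle. This limit ran from 7.04 to 11.5 when a library was left out. Like the other fold limits given here, it leaves out the counting error of the group that has counts. No library labelled Scx-/- therefore held an Scx read, although a gene this sparse did not pass the adjusted test (edgeR quasi-likelihood, Benjamini-Hochberg adjusted p = 0.77).

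Windows around the annotated starts of genes on which the comparison turns are shown so that their sequence can be set beside the values. They are the slow troponin genes Tnnt1, Tnnc1 and Tnni1, the slow myosin light chain Myl2, the fast troponin gene Tnnc2 for contrast, and Fmod. Each runs from 250 bases before to 50 bases after the start (RefSeq, GRCm38.p6, the mm10 assembly; the 5′-most start that the sequence table holds for each gene), and of 18 genes looked up 12 were in the table. Capitals mark the E-box CANNTG, the motif class bound by basic helix-loop-helix factors such as scleraxis and the myogenic factors; it reads the same on both strands.
Myl2: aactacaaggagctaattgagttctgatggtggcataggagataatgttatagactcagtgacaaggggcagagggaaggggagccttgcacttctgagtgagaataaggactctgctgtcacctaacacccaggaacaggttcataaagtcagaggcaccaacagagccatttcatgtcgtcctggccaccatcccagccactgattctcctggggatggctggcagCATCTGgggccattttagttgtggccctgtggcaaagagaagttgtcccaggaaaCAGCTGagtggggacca
Tnnt1: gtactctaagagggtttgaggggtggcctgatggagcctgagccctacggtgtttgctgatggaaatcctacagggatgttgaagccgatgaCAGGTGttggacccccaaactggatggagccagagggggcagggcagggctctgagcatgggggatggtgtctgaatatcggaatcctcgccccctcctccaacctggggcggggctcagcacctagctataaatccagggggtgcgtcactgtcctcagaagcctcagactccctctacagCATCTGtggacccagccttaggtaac
Tnnc1: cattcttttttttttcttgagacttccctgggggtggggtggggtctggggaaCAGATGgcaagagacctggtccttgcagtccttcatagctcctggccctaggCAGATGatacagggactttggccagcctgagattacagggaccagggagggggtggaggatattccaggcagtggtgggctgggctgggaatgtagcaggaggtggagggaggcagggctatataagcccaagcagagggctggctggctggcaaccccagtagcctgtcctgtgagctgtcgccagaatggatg
Tnni1: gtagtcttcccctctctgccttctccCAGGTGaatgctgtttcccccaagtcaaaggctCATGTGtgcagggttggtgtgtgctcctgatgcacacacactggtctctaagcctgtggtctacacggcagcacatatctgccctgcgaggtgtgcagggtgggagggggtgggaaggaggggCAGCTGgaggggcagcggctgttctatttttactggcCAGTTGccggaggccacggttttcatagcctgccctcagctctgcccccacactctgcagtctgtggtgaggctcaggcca
Tnnc2: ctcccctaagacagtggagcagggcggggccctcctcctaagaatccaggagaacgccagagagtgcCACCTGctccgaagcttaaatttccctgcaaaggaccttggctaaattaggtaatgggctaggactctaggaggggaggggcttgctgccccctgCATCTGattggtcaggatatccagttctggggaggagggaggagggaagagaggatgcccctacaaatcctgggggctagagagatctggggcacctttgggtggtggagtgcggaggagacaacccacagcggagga
Fmod: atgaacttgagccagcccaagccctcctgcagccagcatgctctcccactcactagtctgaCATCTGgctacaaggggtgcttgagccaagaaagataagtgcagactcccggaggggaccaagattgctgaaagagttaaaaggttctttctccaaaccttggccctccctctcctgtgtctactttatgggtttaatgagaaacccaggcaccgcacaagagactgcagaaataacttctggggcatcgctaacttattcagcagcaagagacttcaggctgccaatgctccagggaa
The windows lie on chr5:122092474-122092773 (Myl2, plus strand), chr7:4515926-4516225 (Tnnt1, minus strand), chr14:31208062-31208361 (Tnnc1, plus strand), chr1:135799171-135799470 (Tnni1, plus strand), chr2:164779685-164779984 (Tnnc2, minus strand) and chr1:134037004-134037303 (Fmod, plus strand). The Tnni1 window lies inside the annotated span of the gene, chr1:135783033-135810989, and not at its outer end, whereas the others lie at the end of the gene's span. They hold 2, 2, 2, 4, 2 and 1 E-boxes in that order. An E-box occurs in 72.1% of all 27025 windows of this length, so its presence sets none of these genes apart. The narrower form CAGCTG, itself an E-box, stands in the Myl2 and Tnni1 windows and in 16.1% of all windows, and CATTCC, a motif of muscle promoters searched on both strands, stands in the Tnnc1 window and in 14.7% of all windows.

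With all 6 libraries, 7 of 14532 genes (0.0482%) passed an adjusted p under 0.05. Sln and Hbb-b1 rose, and Myl2, Fmod, Ucp1, Igfn1 and Hbb-bs fell. At the study's own thresholds, an unadjusted p under 0.05 with a fold change above 2 in either direction (log2 above 1), 306 genes were higher (2.11%) and 354 lower (2.44%) in Scx-/- muscle. This balance depended on the scaling and on single libraries, with 260 higher and 479 lower genes under RLE size factors, 234 and 632 under library totals, and 552 and 261 when wild-type replicate 2 was left out. Without wild-type replicate 1, 36 of 14421 genes passed the adjusted threshold as higher (0.250%) and 23 as lower (0.159%), while 311 genes were higher (2.16%) and 299 lower (2.07%) at the study's thresholds. Only Sln, Myl2, Fmod and Ucp1 were called in both fits.

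The calls without wild-type replicate 1 carry a limit that applies wherever they are used here. When weakly counted genes were removed first (edgeR's filterByExpr, which kept 7615 genes), none of the 59 passed: the smallest adjusted p was 0.0663, with 510 genes at an unadjusted p under 0.05, whereas DESeq2 on the same 5 libraries called 36 genes. The 59 genes were chosen by their call, and the 10 alternatives to that fit reuse the same libraries. A kept sign is therefore nearly given in advance and is not independent evidence. The sign was kept in all 10 alternatives by 58 of the 59 genes, and 12 of the 59 passed in at least 8 of the 10. Among the genes described here, Sln passed in 9, Atp2a2, Kera and Mt2 in 8, Fmod, Ucp1 and Exoc3l4 in 7, and Myl2, Txnip, Chrna9 and Cdkn2c in 6 of them. Scd1 passed in 7, Alas2 in 5 and Usf3 in 2.

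**Figure D1:**
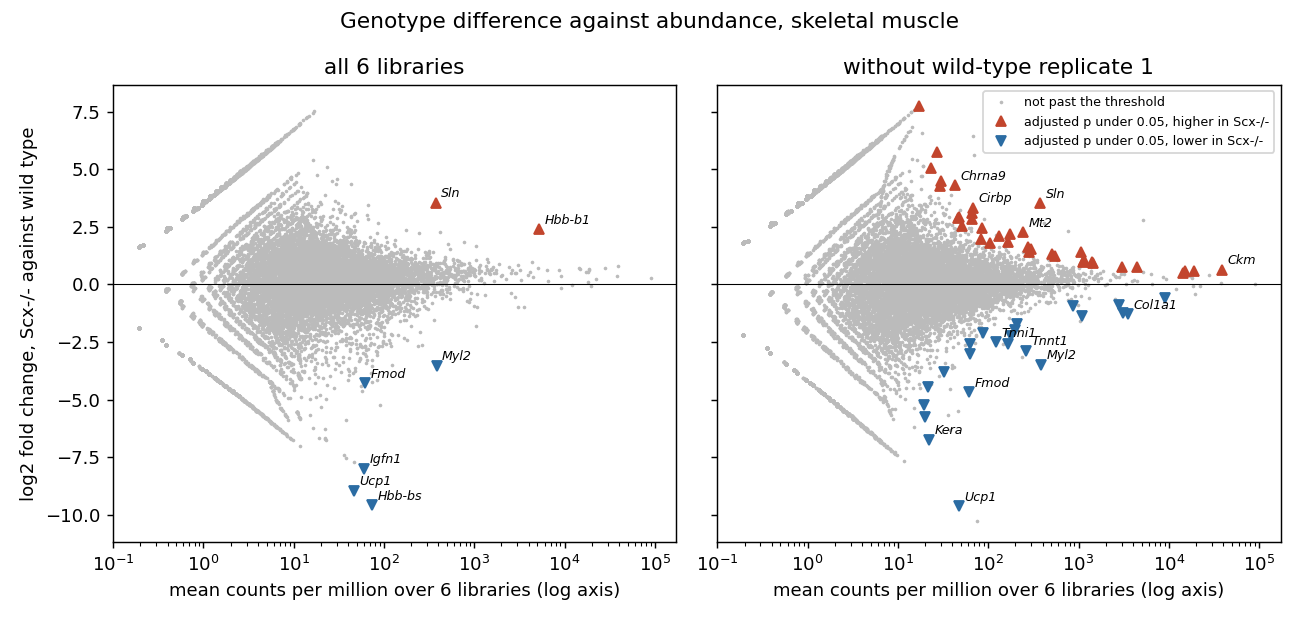
Log2 fold change (Scx-/- against wild type) of every gene tested against its mean CPM over the 6 libraries on a log axis, with all 6 libraries on the left and without wild-type replicate 1 on the right. Triangles mark genes with an adjusted p under 0.05, 7 on the left and 59 on the right, where the added calls include abundant genes with small fold changes such as Ckm.

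At the study's thresholds, 2.44% of all genes were lower and 2.11% higher in Scx-/- muscle. Of the 12 members of the slow-fibre list, contractile genes that were all tested, 7 were lower and 0 higher at these thresholds, 1 of them (Myl2) also by the adjusted p. Leaving out wild-type replicate 1 gave 6 such genes, leaving out wild-type replicate 3 gave 3, and leaving out Scx-/- replicate 3 gave 4. The median log2 fold change of the list was -2.00, against 0.24 for all genes. In 6 of the 12, namely Myh7, Myl2, Tnnt1, Tnni1, Tnnc1 and Atp2a2, every wild-type library lay above every Scx-/- library, a pattern that 2.17% of all genes showed. Together the 12 genes took 0.187 to 0.529% of the counts in wild-type libraries and 0.0513 to 0.140% in Scx-/- libraries. The highest share was that of wild-type replicate 3, which lay alone at one end of the second principal component (13.4% of the variance); the part of this library in the slow-fibre values was not tested beyond leaving it out. The study itself picked Tnnt1, Tnnc1, Tnni1 and Atp2a2 from these libraries, so their direction is not independent evidence.

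Myl2, the regulatory light chain of slow and cardiac myosin, was measured at 1085, 201 and 875 CPM in wild-type and at 77.1, 32.4 and 20.8 CPM in Scx-/- replicates 1 to 3. The lowest wild-type library was therefore above the highest Scx-/- library. Myl2 fell by 3.52 on the log2 scale (SE 0.64, adjusted p = 0.000106), and its log2 fold change was -3.49 (SE 0.45, adjusted p = 1e-06) without wild-type replicate 1. The call was lost without wild-type replicate 3 or without Scx-/- replicate 2 or 3, with an adjusted p of 0.16, 0.12 and 0.18, and in the fit over all 96 libraries of the series (0.17).

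The slow troponins moved the same way as each other. Tnnt1, the slow tropomyosin-binding subunit, stood at 428, 275 and 700 CPM in wild-type and 90.2, 45.3 and 43.9 CPM in Scx-/- libraries, a log2 fold change of -2.64 (SE 0.64, adjusted p = 0.0614). Tnnc1, the calcium-binding subunit that slow muscle shares with heart, stood at 559, 160 and 240 CPM against 43.9, 51.8 and 20.8 CPM (-2.42, SE 0.73, adjusted p = 0.34). Tnni1, the slow inhibitory subunit, stood at 132, 110 and 380 CPM against 75.9, 32.4 and 6.93 CPM (-2.19, SE 0.74, adjusted p = 0.62). None of the 3 passed with all 6 libraries; without wild-type replicate 1 all 3 did, with adjusted p = 1.36e-11 for Tnnt1, 0.00258 for Tnnc1 and 0.00046 for Tnni1. Of the 10 alternatives to that fit, Tnnt1 passed in 9, Tnnc1 in 7 and Tnni1 in 5.

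Atp2a2, the SERCA2 calcium pump of slow and cardiac muscle, was measured at 362, 216 and 392 CPM in wild-type and 81.9, 75.1 and 54.3 CPM in Scx-/- libraries. Its spread was small within both groups, and its log2 fold change was -1.82 (SE 0.67, adjusted p = 0.77) with all libraries and -1.97 (SE 0.40, adjusted p = 0.000518) without wild-type replicate 1. Myh7, the slow myosin heavy chain, went from 98.7, 157 and 470 CPM to 81.9, 54.4 and 5.77 CPM, and the groups came close to each other (-2.19, SE 0.71, adjusted p = 0.55; 0.28 without wild-type replicate 1). Myl3, the slow essential light chain, overlapped between the groups, with 32.9, 228 and 981 CPM against 91.4, 89.3 and 4.62 CPM. Its adjusted p was 0.0625 with all libraries and 0.82 without wild-type replicate 1, in which it had 1 count.

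Myoglobin (Mb), the oxygen-binding protein that is richest in slow and oxidative fibres, followed the slow genes. It was measured at 3058, 832 and 1409 CPM in wild-type and 592, 197 and 200 CPM in Scx-/- libraries, with no overlap (log2 fold change -1.82, SE 0.48, adjusted p = 0.17; 0.058 without wild-type replicate 1). Of the fast myosin heavy chains, Myh2 and Myh1 did not separate the groups, whereas Myh4, described below, did. Myh2, the chain of oxidative fast fibres, overlapped between groups at 952 to 1743 against 458 to 1308 CPM, and Myh1 at 2203 to 3025 against 1746 to 3973 CPM.

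Sarcolipin (Sln), a small membrane protein that binds and inhibits the sarcoplasmic calcium pump, rose in Scx-/- muscle. Its gene lies on chr9:53850251-53853849. It was counted 3, 21 and 50 times in wild-type and 341, 798 and 510 times in Scx-/- libraries, or 98.7, 24.1 and 105 CPM against 405, 1033 and 589 CPM. The lowest Scx-/- library was above the highest wild-type library, as for 6.05% of all genes. The log2 fold change was 3.55 (SE 0.62, adjusted p = 5e-05), and 3.52 (SE 0.41, adjusted p = 8.72e-09) without wild-type replicate 1. Leaving out Scx-/- replicate 2 ended the call (adjusted p = 0.2), as did thinning to the shallowest library (0.33) and the fit over all 96 libraries (adjusted p = 1). Of the 18 members of the calcium handling list, Sln was the only one higher and Atp2a2 the only one lower at the study's thresholds. Leaving out wild-type replicate 3 gave 4 higher and 0 lower, and leaving out Scx-/- replicate 3 also gave 0 lower.

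**Figure D2:**
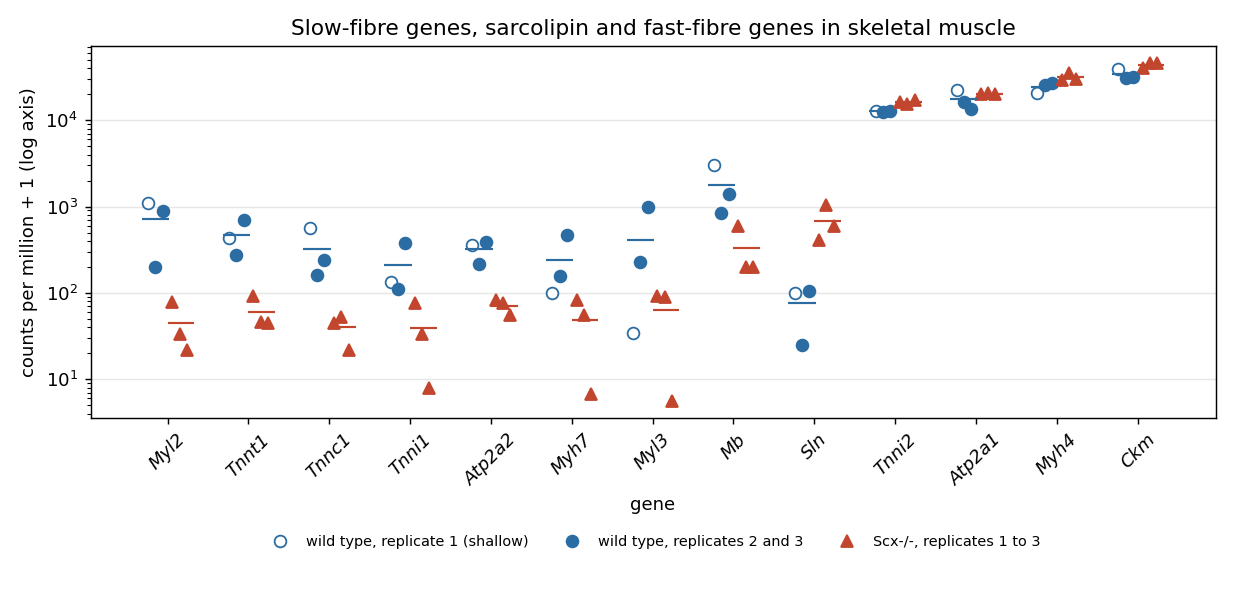
CPM plus 1 on a log axis for 7 slow-fibre genes, Mb, Sln and 4 fast-fibre or general muscle genes in each library, with circles for wild type (open for the shallow replicate 1), triangles for Scx-/- and lines at group means. In Myl2, Tnnt1, Tnnc1, Tnni1, Atp2a2, Myh7 and Mb all circles lie above all triangles, in Sln all lie below, and the fast-fibre genes differ little on this scale.

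The fast-fibre genes did not mirror the slow ones at a similar size. Of 16 members tested, 0 were higher or lower at the study's thresholds with all 6 libraries, 1 (Mylk2) was higher without wild-type replicate 1, and the median log2 fold change of the list was 0.54. The 16 genes together took 20.1 to 21.7% of the counts in wild-type and 22.2 to 22.8% in Scx-/- libraries. Without wild-type replicate 1, 3 of them passed the adjusted threshold as higher: the fast troponin Tnni2 (log2 fold change 0.49, SE 0.13, adjusted p = 0.0387), the fast calcium pump Atp2a1 (0.60, SE 0.13, adjusted p = 0.00132) and the Z-disc protein Myoz1 (0.75, SE 0.18, adjusted p = 0.0153). Of the 10 alternatives to that fit, Tnni2 passed in 1, Myoz1 in 2 and Atp2a1 in 7. Myh4, the myosin of the fastest fibres, ran from 20718 to 26831 CPM in wild-type and from 29391 to 35440 CPM in Scx-/- libraries without overlap (0.70, SE 0.28, adjusted p = 0.77; 0.40, SE 0.11, adjusted p = 0.076 without wild-type replicate 1).

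Among the 17 sarcomere components of all fibres, Mb was lower at the study's thresholds, and the list's median was 0.54. Muscle creatine kinase (Ckm), which regenerates ATP at the myofibril, was measured at 39298, 30396 and 31798 CPM in wild-type and 39800, 45716 and 46107 CPM in Scx-/- libraries. The groups were separated by a narrow gap, and the adjusted p was 0.6 with all 6 libraries and 6.76e-06 (log2 fold change 0.63, SE 0.11) without wild-type replicate 1. Tcap, a titin-binding protein of the Z-disc, and the calcium release channel Ryr1 passed as higher in that smaller fit only, with log2 fold changes of 0.97 and 0.93. Ckm passed in 8, Ryr1 in 4 and Tcap in 2 of its 10 alternatives.

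The calls among enzymes of glycolysis depended on the setting. At the study's thresholds, 2.11% of all genes were higher and 2.44% lower, with a median log2 fold change of 0.24. Of 16 glycogen and glycolysis genes tested, 2 were higher (Pfkm and Gpd1) and 0 lower at these thresholds, with a median log2 fold change of 0.65. The number higher was 0 with RLE size factors, library totals, DESeq2 or the fit over all 96 libraries, 0 without wild-type replicate 1 or Scx-/- replicate 2, and 4 without wild-type replicate 3. Pfkm, muscle phosphofructokinase, stood at 1250, 1132 and 835 CPM in wild-type and 1590, 2015 and 1558 CPM in Scx-/- libraries without overlap. Its log2 fold change was 1.09 (SE 0.43, adjusted p = 0.77), and 0.95 (SE 0.22, adjusted p = 0.00556) without wild-type replicate 1. Aldoa, muscle aldolase, passed in that smaller fit as well (0.59, SE 0.13, adjusted p = 0.00395), and these calls returned in 7 (Pfkm) and 5 (Aldoa) of its 10 alternatives. Of 31 nuclear-encoded respiratory chain genes none was past the study's thresholds in either direction with all libraries, while 2 were higher without wild-type replicate 3, 1 without wild-type replicate 2, and 1 higher and 1 lower after thinning, and of 18 genes of fatty acid uptake and oxidation Echs1 and Etfdh were higher, a count that became 3 when wild-type replicate 1 and 0 when Scx-/- replicate 3 was left out.

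The tendon genes had low counts. Of 18 tendon lineage genes tested, 6 (Scx, Tnmd, Fmod, Kera, Cilp2 and Chad) were lower and 0 higher at the study's thresholds, 1 (Fmod) by the adjusted p, with a median log2 fold change of -0.74. Scx is the gene that was knocked out, so its place among the 6 follows from the genotype and is no result about tendon genes. Of all genes, 2.44% were lower and 2.11% higher at these thresholds, with a median of 0.24. The count of 6 was 2 without wild-type replicate 3, 1 with filterByExpr, 1 after thinning to the shallowest library and 3 with a replicate block. When wild-type replicate 1 was left out, Thbs4 was also lower at these thresholds, and Fmod and Kera passed the adjusted threshold. The 18 genes together took 0.0625 to 0.137% of wild-type and 0.0313 to 0.0604% of Scx-/- counts, and 3 of them, Scx included, were at 0 in every Scx-/- library.

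Fibromodulin (Fmod), which binds type I collagen fibrils and limits their thickness, was counted 1, 38 and 131 times in wild-type and 2, 6 and 6 times in Scx-/- libraries. In CPM this was 32.9, 43.6 and 276 against 2.37, 7.77 and 6.93, without overlap, although wild-type replicate 3 far exceeded the other wild-type libraries. Fmod fell by 4.28 on the log2 scale (SE 0.98, adjusted p = 0.0322), and its log2 fold change was -4.68 (SE 0.67, adjusted p = 8.72e-09) without wild-type replicate 1. Without wild-type replicate 3 the log2 fold change was -2.38 (adjusted p = 0.86), and leaving out any 1 Scx-/- library also ended the call (adjusted p of 0.52 to 0.89), as did a replicate block (1), thinning (0.65) and the fit over all 96 libraries (1). The study named Fmod from these libraries as well.

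Keratocan (Kera), a related proteoglycan of tendon and cornea, was counted 0, 34 and 44 times in wild-type and 1, 0 and 0 times in Scx-/- libraries. Both deep wild-type libraries stood far above the Scx-/- libraries, and only the shallow one had no count. Its log2 fold change was -6.26 (SE 1.53, adjusted p = 0.0614) with all libraries and -6.75 (SE 1.37, adjusted p = 0.000708) without the shallow one. Cilp2, a secreted cartilage and tendon matrix protein, showed the same distribution of counts, 0, 19 and 16 against 0 in each Scx-/- library, at least 21.0-fold lower (13.7 to 26.2 when a library was left out). Tenomodulin (Tnmd), a membrane protein of mature tendon cells, rested mainly on wild-type replicate 3, with 0, 5 and 43 counts against 0, 5 and 0. Chondroadherin (Chad), a leucine-rich matrix protein, was counted in wild-type replicate 3 alone, 18 times. Neither gene, nor Cilp2, passed an adjusted test in either fit.

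Type I collagen and its chaperone showed smaller differences on larger counts, and the study picked all 3 genes from these libraries, so their direction is not independent evidence. Col1a1 was measured at 4374, 4016 and 6935 CPM in wild-type and 2685, 2099 and 1316 CPM in Scx-/- libraries, and Col1a2 at 4308, 3617 and 5357 CPM against 1958, 2053 and 1179 CPM. Neither chain overlapped between the groups. Their log2 fold changes were -0.996 and -0.997, with SEs of 0.37 and 0.38 and an adjusted p of 0.77 for each with all 6 libraries. Without wild-type replicate 1 they were -1.29 (SE 0.21, adjusted p = 0.000231) and -1.24 (SE 0.18, adjusted p = 2.04e-08), and each passed in 8 of the 10 alternatives to that fit.

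Serpinh1, the collagen chaperone HSP47, was counted 2, 371 and 198 times in wild-type and 86, 97 and 107 times in Scx-/- libraries. Its wild-type CPM of 65.8, 426 and 418 enclosed the Scx-/- values of 102, 126 and 124, because the shallow library had only 2 counts. The log2 fold change was -1.27 (SE 0.62, adjusted p = 0.77) with this library and -1.71 (SE 0.35, adjusted p = 0.000708) without it, a call that returned in 9 of the 10 alternatives. Sparc, a collagen-binding glycoprotein, was lower without overlap at 2960, 3093 and 3518 against 2158, 1906 and 1674 CPM, but passed no adjusted test (edgeR quasi-likelihood, adjusted p = 0.81 with all libraries and 0.0904 without wild-type replicate 1).

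Several matrix genes of other kinds of connective tissue gave no separation. Col3a1, the fibrillar collagen of loose connective tissue, was measured at 888, 2624 and 2143 CPM against 2087, 2547 and 1633 CPM, and decorin (Dcn), a proteoglycan of many fibroblasts, at 658, 873 and 993 against 879, 1076 and 764 CPM. Both overlapped between the groups, and their log2 fold changes of 0.38 and 0.40 changed sign in some alternatives. Of the 13 collagen chains tested none passed the study's thresholds with all libraries, Col1a1 and Col1a2 lying just inside the fold limit. In the alternatives 0 to 3 were lower, with 2 for RLE size factors, library totals, filterByExpr, DESeq2 and thinning. Leaving out wild-type replicate 1 (Col1a1, Col1a2 and Col15a1) or 2 gave 3, and leaving out Scx-/- replicate 1 or 2 gave 2 and 1. Every wild-type library also lay above every Scx-/- library for Col6a2, Prelp and Ppib, with an adjusted p of 0.92, 0.77 and 0.77 (edgeR quasi-likelihood). Of 11 small leucine-rich proteoglycans Fmod and Kera were lower at the study's thresholds (1 without wild-type replicate 3), beside 2.44% of all genes. Of 18 genes of collagen processing Serpinh1 was lower, with 4 (Serpinh1, Ppib, Fkbp10 and Colgalt1) without wild-type replicate 1 and 0 when any other single library was left out. Of 12 markers of muscle fibroblasts 0 passed at the study's thresholds with all libraries, 1 (Col15a1) was lower without wild-type replicate 1 and 1 was higher without wild-type replicate 2. Their median log2 fold change was -0.26, and -0.52 in the fit without wild-type replicate 1, with a summed share of 0.148 to 0.314% of wild-type and 0.232 to 0.272% of Scx-/- counts; the part of fibroblast content in the collagen values was not tested.

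Col2a1, the collagen of cartilage and a gene the study named for muscle, was counted 6, 0 and 8 times in wild-type and 0 times in all Scx-/- libraries, at least 8.42-fold lower, with an adjusted p of 0.29. This limit was 4.92 without wild-type replicate 1 and ran from 4.92 to 22.9 over the libraries left out. It was at 0 in the deepest wild-type library and present in the shallowest. Only 5 of the 17 cartilage markers had any count, 2 of them lower at the study's thresholds (Col2a1 and Col11a1; 1 without wild-type replicate 1), and the list's summed share was 0.00172 to 0.0197% of wild-type and 0.00104 to 0.00196% of Scx-/- counts.

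**Figure D3:**
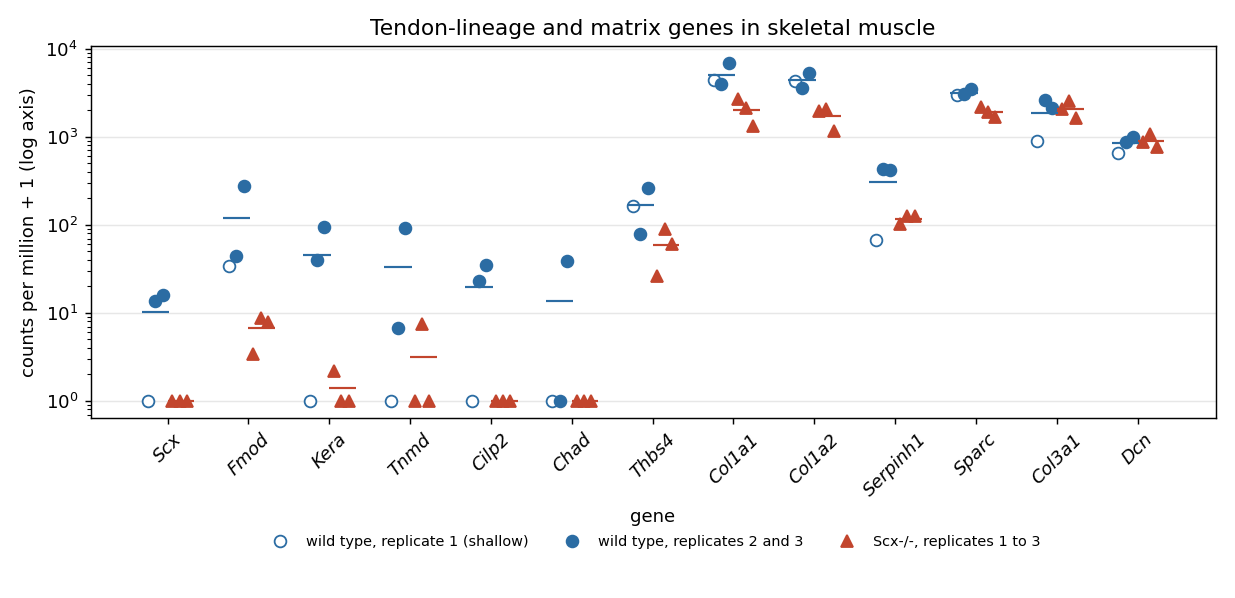
CPM plus 1 on a log axis for 13 tendon and matrix genes in each library, with symbols as in the plot of fibre genes and genes without a count at 1. Scx, Cilp2 and Chad are at 0 counts in every Scx-/- library, Fmod, Col1a1, Col1a2 and Sparc separate the groups in every library, and Col3a1 and Dcn overlap.

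Of 18 genes that respond to glucocorticoids and fasting, 5 (Mt1, Mt2, Cebpd, Klf15 and Txnip) were higher and 0 lower at the study's thresholds, none by the adjusted p, and the median log2 fold change was 1.06, beside 2.11% higher, 2.44% lower and a median of 0.24 over all genes. Without wild-type replicate 1, 6 were higher, against 3 without wild-type replicate 3 or Scx-/- replicate 3, and Mt2 and Txnip passed the adjusted threshold. Mt2, a metal-binding metallothionein, stood at 164, 125 and 46.4 CPM in wild-type and 416, 189 and 507 CPM in Scx-/- libraries, with no overlap (log2 fold change 2.23, SE 0.64, adjusted p = 0.28; 2.58e-06 without wild-type replicate 1). Txnip, an inhibitor of thioredoxin that limits glucose uptake, stood at 32.9, 426 and 266 against 538, 938 and 875 CPM (1.75, SE 0.52, adjusted p = 0.33; 0.000977 without wild-type replicate 1). Klf15, a transcription factor induced by glucocorticoids, was counted 0, 21 and 0 times in wild-type and 76, 53 and 66 times in Scx-/- libraries, and its adjusted p was 0.69 in one fit and 0.0597 in the other.

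Of 18 genes of denervation, unloading and atrophy, Fbxo32, Mt1 and Mt2 were higher and Ankrd1 was lower at the study's thresholds, beside 2.11% and 2.44% of all genes. Mt1 and Mt2 are also among the glucocorticoid and fasting genes counted above. Leaving out wild-type replicate 1 gave 4 higher genes, and leaving out Scx-/- replicate 3 gave 1. Fbxo32, the ubiquitin ligase atrogin-1, was measured at 0, 43.6 and 33.7 CPM in wild-type and 60.5, 45.3 and 317 CPM in Scx-/- libraries. Its height came mostly from Scx-/- replicate 3, and without wild-type replicate 1 it passed narrowly (log2 fold change 1.97, SE 0.53, adjusted p = 0.0469), and in 2 of the 10 alternatives to that fit. The acetylcholine receptor subunit Chrna9, which is not on this list and was chosen after its values were seen, was counted 0, 0 and 5 times in wild-type and 45, 116 and 39 times in Scx-/- libraries (4.35, SE 1.17, adjusted p = 0.19; 0.000719 without wild-type replicate 1).

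Of 12 embryonic and neonatal muscle genes tested, Myh8, Igf2 and Igf2bp2 were higher and Mest was lower at the study's thresholds, beside 2.11% and 2.44% of all genes. In the fit without wild-type replicate 1 only Myh8 was higher and none lower at these thresholds, while Actc1, also on this list, was lower by the adjusted p; without Scx-/- replicate 2 none was higher. Myh8, the perinatal myosin heavy chain, ran from 0 to 12.7 CPM in wild-type and from 27.3 to 158 CPM in Scx-/- libraries without overlap (log2 fold change 2.97, SE 1.04, adjusted p = 0.69; 0.0619 without wild-type replicate 1). Mest, an imprinted gene of growing tissue, ran the other way without overlap, at 40.2 to 329 against 2.31 to 27.3 CPM, with its highest value from 10 counts in the shallow library. Of 17 myogenic regulators and satellite cell genes none passed the study's thresholds with all libraries, and Pax7 and Tmem8c were lower without wild-type replicate 1. Of 20 proliferation genes 5 were lower (Top2a, Mki67, Ccnb2, Birc5 and Cenpf) at the study's thresholds, beside 2.44% of all genes. Of these 5, Top2a, the topoisomerase of dividing cells, had most counts, 0, 22 and 30 against 0, 1 and 0. Cenpf and Ccnb2 were counted in wild-type replicate 3 alone. The count of 5 was 3 without wild-type replicate 1, 0 without wild-type replicate 3, 0 with filterByExpr and 0 after thinning.

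Further genes passed without wild-type replicate 1. Apobec2, a muscle member of the cytidine deaminase family, stood at 526, 741 and 519 CPM in wild-type and 1301, 1365 and 1893 CPM in Scx-/- libraries (log2 fold change 1.66, SE 0.46, adjusted p = 0.22; 1.41, SE 0.23, adjusted p = 2.58e-06 in the smaller fit). Cirbp, a cold-inducible RNA-binding protein, was counted 0, 8 and 9 times against 107, 108 and 93 times (3.47, SE 0.95, adjusted p = 0.22; 0.000172). Both separated the groups, and the calls returned in 9 and 8 of the 10 alternatives. Tcea3, a transcription elongation factor, Ddit4l, an inhibitor of mTOR signalling, Fth1, the ferritin heavy chain, and Idh2, a mitochondrial dehydrogenase, were also higher without overlap, with log2 fold changes of 2.21, 1.25, 0.74 and 1.42 in the smaller fit, and passed in 7, 7, 6 and 4 of its 10 alternatives.

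On the lower side of that smaller fit, Actb, the cytoplasmic actin of non-muscle cells, stood at 822, 2544 and 1192 CPM in wild-type and 617, 559 and 744 CPM in Scx-/- libraries (-1.39, SE 0.22, adjusted p = 1.12e-06 without wild-type replicate 1). Actc1, the cardiac actin of developing muscle and a member of the embryonic list, was called in the smaller fit with a log2 fold change of -0.60, although with the shallow library its groups overlapped and without wild-type replicate 3 its sign changed (0.50); Actb passed in 8 and Actc1 in 4 of the 10 alternatives. Cdkn2c, a cell cycle inhibitor, was counted 0, 37 and 34 times against 0, 2 and 1 times, and Exoc3l4 0, 49 and 29 times against 0, 2 and 0 times. In both genes only the shallow wild-type library was without a count.

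With few genes past the adjusted test, the largest differences at the study's thresholds without overlap and with at least 10 CPM on average were mostly sparse genes. On the higher side Usf3, Kat7, Mon1a, Rfx7 and Il34 had 0 counts in all wild-type libraries. Usf3, a helix-loop-helix protein, was counted 23, 38 and 22 times in Scx-/- libraries, at least 15.3-fold higher, and the limits of the other 4 were 11.6-fold to 14.8-fold. Without wild-type replicate 2, which held most of the wild-type counts, the limits of these 5 genes were 4.27-fold to 5.62-fold. On the lower side Trmt61a, a tRNA methyltransferase subunit, was counted 6, 17 and 4 times against 0 in all Scx-/- libraries, at least 16.2-fold lower (10.6 to 21.1 when a library was left out). Their adjusted p with all libraries was between 0.17 and 0.49.

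Of the 7 calls with all libraries, 3 rested on 1 wild-type library each. Ucp1, the uncoupling protein of brown fat, was counted 0, 227 and 10 times in wild-type and 0 times in Scx-/- libraries, at least 143-fold lower (16.4-fold without wild-type replicate 2), and passed in both fits (adjusted p = 2.41e-05 and 2.6e-13). The 13 adipocyte markers took 0.405% of the counts in wild-type replicate 2, against 0.0493 to 0.157% in the other libraries, and without that library the adjusted p of Ucp1 was 0.76; DESeq2 on all 6 libraries gave 0.64. The call was also lost with a replicate block (0.41), after thinning (0.65) and in the fit over all 96 libraries (adjusted p = 1), and Ucp1 was removed by filterByExpr. Scd1, a fatty acid desaturase of adipocytes, was lower without overlap at 263, 484 and 118 against 67.6, 54.4 and 11.5 CPM, while the lipid droplet gene Plin4 was higher. The part of fat in these values was not tested. Igfn1, a Z-disc protein, was counted 11, 1 and 0 times against 0, so that its call rested on the shallow library, without which its adjusted p was 0.82; without any 1 Scx-/- library it was 0.41 to 0.55.

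The haemoglobin values varied between libraries. Hbb-b1, an adult beta-globin gene, was measured at 4735, 581 and 1991 CPM in wild-type and 16882, 3840 and 3158 CPM in Scx-/- libraries (log2 fold change 2.39, SE 0.48, adjusted p = 0.0322), with overlap and an adjusted p of 0.82 without wild-type replicate 1. The call was also lost with RLE size factors (0.76), library totals (0.74), filterByExpr (1), DESeq2 (0.75), thinning (0.65) and the fit over all 96 libraries (1), and without wild-type replicate 3 (0.86) or Scx-/- replicate 1 (0.89). Hbb-bs was counted 389 times in wild-type replicate 2 and 0 times in all other muscle libraries. In heart it stood at 4002 CPM in wild-type replicate 2 and at 3.55 to 16.2 CPM in the other libraries. The beta-globin copies are nearly identical and can share reads, so their separate values are uncertain. Why Hbb-bs stood out in wild-type replicate 2 of both tissues was not tested. Of 8 erythroid genes tested, 4 were higher (Hbb-b1, Hba-a1, Hbb-b2 and Alas2) and 2 lower (Hbb-bs and Hbb-bt) at the study's thresholds, beside 2.11% and 2.44% of all genes. These counts were 1 (Alas2) and 1 (Hbb-bt) when wild-type replicate 1 was left out, and 1 and 2 when Scx-/- replicate 1 was left out. No erythroid gene was lower when wild-type replicate 2 was left out. The list's share was 0.127 to 0.618% of wild-type and 0.380 to 2.09% of Scx-/- counts, highest in Scx-/- replicate 1. Blood content was not tested as a part of other results.

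**Figure D4:**
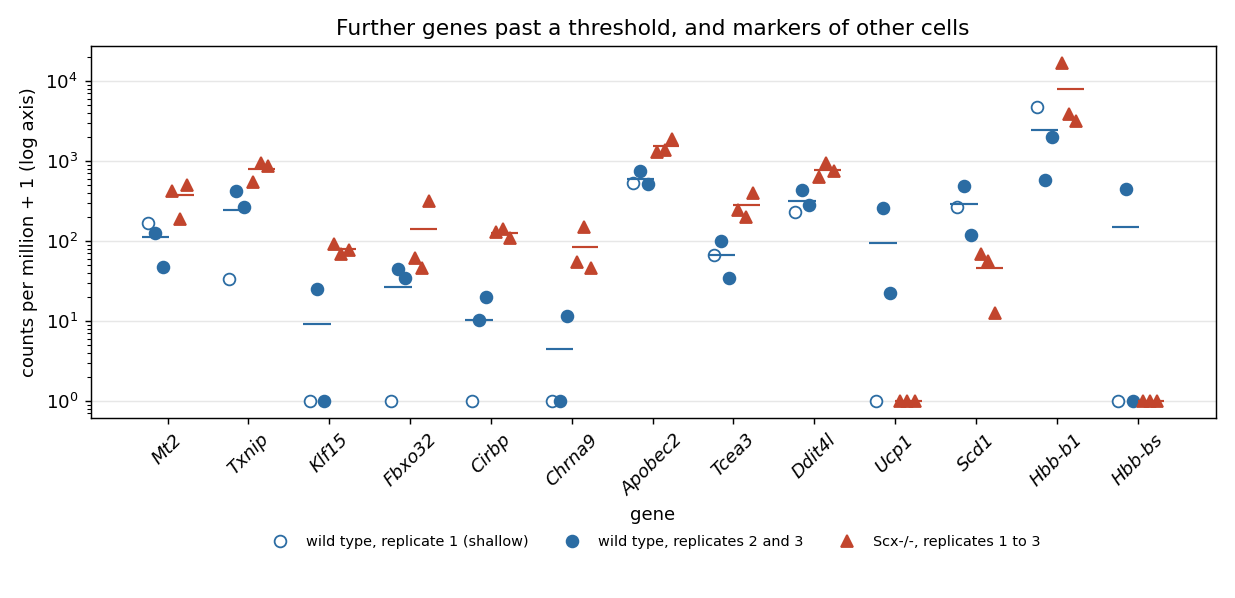
CPM plus 1 on a log axis for 13 further genes in each library, with symbols as in the plot of fibre genes. Mt2, Txnip, Klf15, Cirbp, Chrna9, Apobec2, Tcea3 and Ddit4l lie higher in every Scx-/- library than in any wild-type library, as do 6.05% of all genes. Hbb-bs rests on wild-type replicate 2 alone and Ucp1 mainly on it.

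The heart, the other striated muscle of the series, expresses several of the slow genes and allows the genotype difference to be compared between tissues. Of the 6 heart libraries, wild-type replicate 2 held 11244 counts, so that 1 count there equals 88.9 CPM, and the other 5 held 159806 to 439907. In a joint fit of 12 libraries, the genotype difference itself differed between muscle and heart for 4 of 15771 genes (0.0254%) at an adjusted p under 0.05, with 817 at an unadjusted p under 0.05. Myl2 was among them: its log2 fold change was -3.52 in muscle and 0.42 (SE 0.56) in heart, where it ran from 9160 to 11960 CPM in wild-type and from 10590 to 15840 CPM in Scx-/- libraries, and the effects differed by -3.94 (SE 0.84, adjusted p = 0.013). This call was lost without wild-type muscle replicate 3 (adjusted p = 0.47), without Scx-/- muscle replicate 2 or 3 (0.2 and 0.34) or without Scx-/- heart replicate 1 or 2 (0.13 and 0.056). Without the shallow wild-type heart library it held (adjusted p = 9.16e-08). For Tnnc1, Myl3, Atp2a2 and Mb the heart values were 0.25, 0.25, 0.16 and 0.15, but the difference between tissues did not pass (adjusted p of 0.73, 0.57, 0.93 and 0.9). For Col1a1 and Col1a2 the differences between the tissues were 0.07 (SE 0.84) and -0.02 (SE 0.87), and for Sln 1.90 (SE 1.00), with errors too wide to tell whether the tissues differ.

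**Figure D5:**
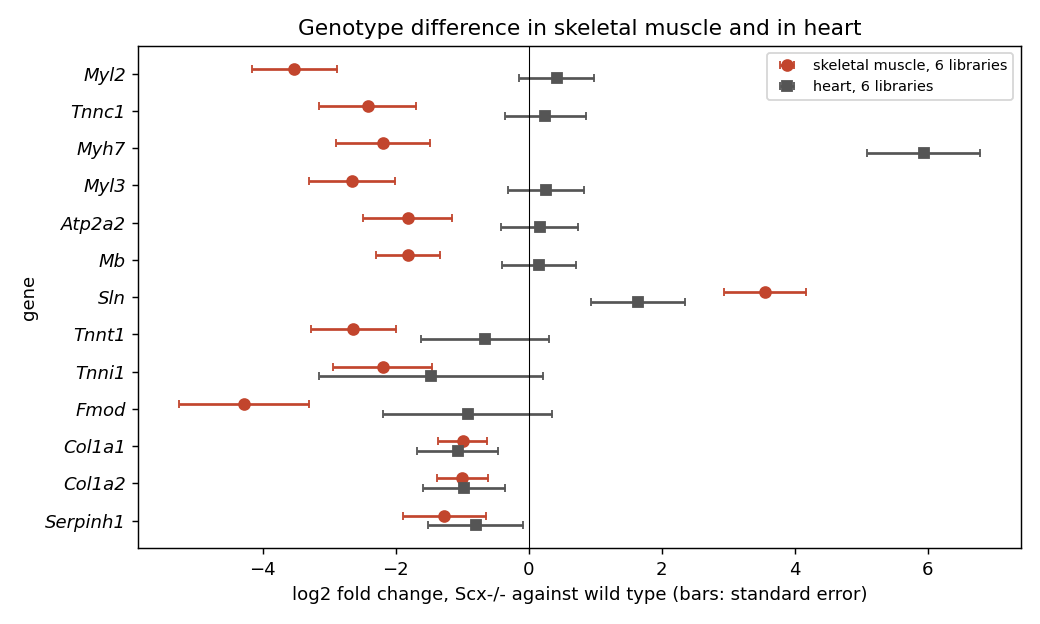
Log2 fold change (Scx-/- against wild type) with its standard error for 13 genes in skeletal muscle (circles) and heart (squares), 6 libraries each. Myl2 lies at -3.52 in muscle and 0.42 in heart, Col1a1 and Col1a2 lie close together in both tissues, and Myh7 points in opposite directions.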

How the data were processed

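Total RNA of whole quick-frozen muscle was extracted with Trizol, barcoded during reverse transcription, pooled, and prepared with Nextera XT in a multiplexed, 3′-enriched protocol. The authors mapped reads to mm10 with Bowtie2 and counted them with HTSeq, per the labels. Tool versions, strand setting and use of molecular identifiers: not given in the sources used here. The deposited values are whole-number counts per gene symbol without normalization. Counts without molecular identifiers are not independent molecules, so limits cover counting error only.

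Genes at 0 in all 6 muscle libraries were removed. Genotypes were compared with edgeR 4.0.16 (R 4.3.3) using TMM factors, robust dispersion estimates, the quasi-likelihood test and Benjamini-Hochberg adjustment over all genes tested. The standard errors are the log2 fold change over the square root of the test's F value. Single genes carry the model's adjusted p, because exact permutation of 3 against 3 libraries has a smallest p of 0.1. CPM used library totals. The interaction with heart was fitted to 12 libraries. For a gene at 0 in one group, fold limits set 3 counts over that group against the measured CPM of the other group, whose own error was left out. No replicates were duplicates: their counts differed by 6.93 to 12.6 times the sampling variance (chi-square per degree of freedom). Scripts were tested on simulated counts. Alternatives were RLE and library-total scaling, filterByExpr, DESeq2 1.42.0, limma 3.58.1 voom with quality weights, a replicate block, thinning, a fit over all 96 libraries, and leaving out each library. Alternatives to the fit without wild-type replicate 1 were added after its result was seen.

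The genes and gene lists were chosen with earlier results of these data known. The named genes are Scx, the study's muscle genes, the 12 largest rises and falls, and, per list, called members, up to 4 members at the study's thresholds and the 3 most abundant. Not every one is printed, and 1 list member is not reported here; calls without wild-type replicate 1 and genes outside the rule were chosen after their values were seen.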

Additional observations from a re-analysis of the deposited data

Results flagged for a closer look

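The genotype difference in skeletal muscle differed from that in heart, by the test of the difference itself (edgeR quasi-likelihood, adjusted p under 0.05), for 4 genes. In these 12 libraries the shallowest, wild-type heart replicate 2, held 11244 counts, so that 1 count there equals 88.9 CPM. For Myl2 the difference was -3.94 on the log2 scale (SE 0.84, adjusted p = 0.013), and the muscle libraries carried it, with 33, 175 and 415 counts in wild-type and 65, 25 and 18 counts in Scx-/- muscle. It passed in all the scaling and tool alternatives, but without wild-type muscle replicate 3 its adjusted p was 0.47, and it was also lost without Scx-/- muscle replicate 2 or 3 (0.2 and 0.34) and without Scx-/- heart replicate 1 or 2 (0.13 and 0.056). For Myh7 it was -8.12 (SE 1.09, adjusted p = 1.78e-09), and the heart carried most of it: there Myh7 stood at 68.2, 0 and 3.55 CPM in wild-type and 899.5, 3116 and 3480 CPM in Scx-/- libraries, a log2 fold change of 5.94, against -2.19 in muscle. Without the shallow heart library, where Myh7 had 0 counts, the difference was -7.92 (adjusted p = 0.0567) and no longer passed. For Casq1, the calcium-storing protein of fast muscle, it was 9.21 (SE 1.44, adjusted p = 1.26e-06), with 71, 8 and 48 counts (161, 711.5 and 170.5 CPM) in wild-type heart and 0 in Scx-/- heart, while muscle differed by 0.15, a value whose sign depends on the scaling. For Ankrd1, a stress-responsive muscle protein, it was -6.48 (SE 1.46, adjusted p = 0.0362), and in muscle this rested on 17 counts in wild-type replicate 3 and 0 in all other libraries; without that library the difference was -0.71 (adjusted p = 1). The Ankrd1 call was also lost with DESeq2 (adjusted p = 1), voom (0.39) and a replicate block (0.21), and without wild-type heart replicate 3 or any 1 Scx-/- library of either tissue (0.0697 to 0.34).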

How the results depend on the processing

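The number of genes at an adjusted p under 0.05 with all 6 libraries, 7, became 15 with RLE size factors, 32 with library totals, 14 with DESeq2, 102 with voom and quality weights, 3 with thinned libraries and 1 in the fit over 96 libraries; filterByExpr gave 7. Of the original 7, 3 remained with filterByExpr, 3 with DESeq2, 1 after thinning and 0 in the fit over 96 libraries. Leaving out 1 library gave 4 to 59 genes, 59 of them without wild-type replicate 1. The 660 genes at the study's thresholds became 275 with filterByExpr, 1400 with voom and 251 after thinning, and 403 to 813 when a library was left out. Higher calls were 306 of 660 with TMM, 260 of 739 with RLE, 234 of 866 with library totals, 184 of 487 with DESeq2, 338 of 1400 with voom, 88 of 251 after thinning, 161 of 275 with filterByExpr, 124 of 189 with the replicate block, 434 of 853 in the fit over 96 libraries and 552 of 813 without wild-type replicate 2, where the median log2 fold change of all genes was 0.91. The 4 genes that differed between muscle and heart became 14, 19 and 40 with RLE, library totals and voom, and 2 to 5 when any of the 12 libraries was left out, of which the heart libraries other than wild-type replicate 1 were added after the data were seen. Without wild-type replicate 1, the 59 genes became 0 with filterByExpr and 36 with DESeq2, and 35 to 71 when 1 further library was left out, where a lone wild-type sample is assumed to vary like the Scx-/- libraries. Over the 14 alternatives, the members lower at the study's thresholds ran from 3 to 8 for the slow-fibre list (7 as reported), 1 to 8 for tendon (6), 0 to 3 for collagen chains (0), 0 to 4 for collagen processing (1) and 0 to 6 for proliferation (5). Those higher ran from 3 to 6 for glucocorticoid and fasting response (5), 0 to 4 for glycolysis (2), 0 to 4 for the embryonic list (3) and 1 to 4 for erythroid genes (4). The cause of these shifts was not tested.

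Same-numbered wild-type and Scx-/- muscle libraries did not deviate together (r of -0.003, -0.001 and -0.07 over 7078 genes). The numbers therefore gave no pairing of the genotypes in muscle. Whether same-numbered muscle and heart libraries came from the same mouse was not tested, and the fit over 12 libraries treated all as independent. Hbb-bs was highest in wild-type replicate 2 of both tissues (446 CPM in muscle and 4002 CPM in heart). A replicate block gave 3 genes at an adjusted p under 0.05, 189 at the study's thresholds and 3 for the interaction. 

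The sign of a few genes depended on the setting. Casq1, 0.15 on the log2 scale, became -0.027 with RLE, -0.028 with DESeq2, -0.26 with library totals, -0.0086 with voom and -0.25 after thinning, and ran from -0.0036 to 0.27 when a library was left out. Actc1, -0.15, became 0.23 with the replicate block and 0.035 in the fit over 96 libraries, with -0.60 to 0.50 when a library was left out. Col3a1, 0.38, became -0.0096 with voom and ran from -0.043 to 0.74 with a library left out, and Dcn, 0.40, became -0.19 after thinning. No other gene given with a fold change reversed in any of these settings.

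Depth limits the sparse genes: 3 counts equal 98.7 CPM in wild-type replicate 1 and 3.44 to 6.33 CPM elsewhere.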
